A study of Mus musculus with 81 samples.

Results

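CA3 pyramidal neurons (CA3 PNs) and dentate gyrus granule cells (DGCs) were compared within the hippocampus of the same Ts65Dn (Ts) mice. Ts is a mouse model of Down syndrome that carries 3 copies of genes orthologous to human chromosome 21, on a small extra chromosome, and also 3 copies of a segment of chromosome 17 that has no such orthology. The libraries were chosen by label: the CA3 PN library and the DGC library of each of 6 male Ts mice, about 6 months old, whose dams received the normal choline diet (1.1 g/kg choline chloride) until weaning. This gave 12 of the 81 libraries of the series, 6 from each population, paired by mouse. The reference sets were 10 libraries from 5 disomic (2N) male mice on the normal diet and 14 libraries from 7 male Ts mice whose dams received the supplemented diet (5.0 g/kg). All groups were fed the control diet after weaning. The neurons were cut as groups of cell bodies from Nissl-stained sections by laser capture microdissection (LCM), a method in which a laser frees chosen cells from a slice, so each library holds the RNA of many neurons and of whatever processes lay on them.

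Granule cells and CA3 pyramidal neurons are consecutive excitatory relays of the hippocampal circuit. Axons of granule cells, the mossy fibers, end as large zinc-rich boutons on the proximal dendrites of CA3 PNs, which also excite each other through recurrent collaterals. Granule cells fire sparsely, sit at hyperpolarized potentials and are among the few neurons still generated in the adult, whereas CA3 PNs are larger, have long branched axons and can fire in bursts.

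Total expected counts were 999952 to 2710441 in the CA3 PN libraries (median 1474704.5) and 807076 to 1671295 in the DGC libraries (median 1203018.5). Levels are given as CPM, the counts relative to the library total after scaling with trimmed means (TMM), written as the lowest, median and highest of the 6 libraries of a population. LFC is the log2 fold change of CA3 PNs over DGCs in the paired fit, so that a positive value is a higher level in CA3 PNs. A gene was called when its adjusted p was under 0.05 in edgeR's quasi-likelihood test with the mouse as a block.

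Across the transcriptome, CA3 PNs and DGCs of Ts mice differed at 6697 of 13272 genes tested (50.5%), 3427 higher in CA3 PNs (25.8%) and 3270 higher in DGCs (24.6%). At least 2-fold differences numbered 1281 (9.65%) and 1506 (11.3%), at least 8-fold differences 142 and 173, and at least 32-fold differences 25 and 19. The levels of the 6 libraries of either population did not overlap for 3822 genes (28.8%). The balance of directions depends on the scaling: with library totals in place of trimmed means, the median LFC of all genes moved from -0.03 to -0.22 and the split of calls from 3427 and 3270 to 2523 and 4459. Since the split moves in this way, the direction of small LFCs is relative to that scaling. List counts given below cover tested genes only. They are to be read beside the shares of all genes tested, 25.8% higher in CA3 PNs and 24.6% higher in DGCs. Those given with library totals are to be read beside the 2523 and 4459 of 13272 genes called in that fit.

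**Figure D1:**
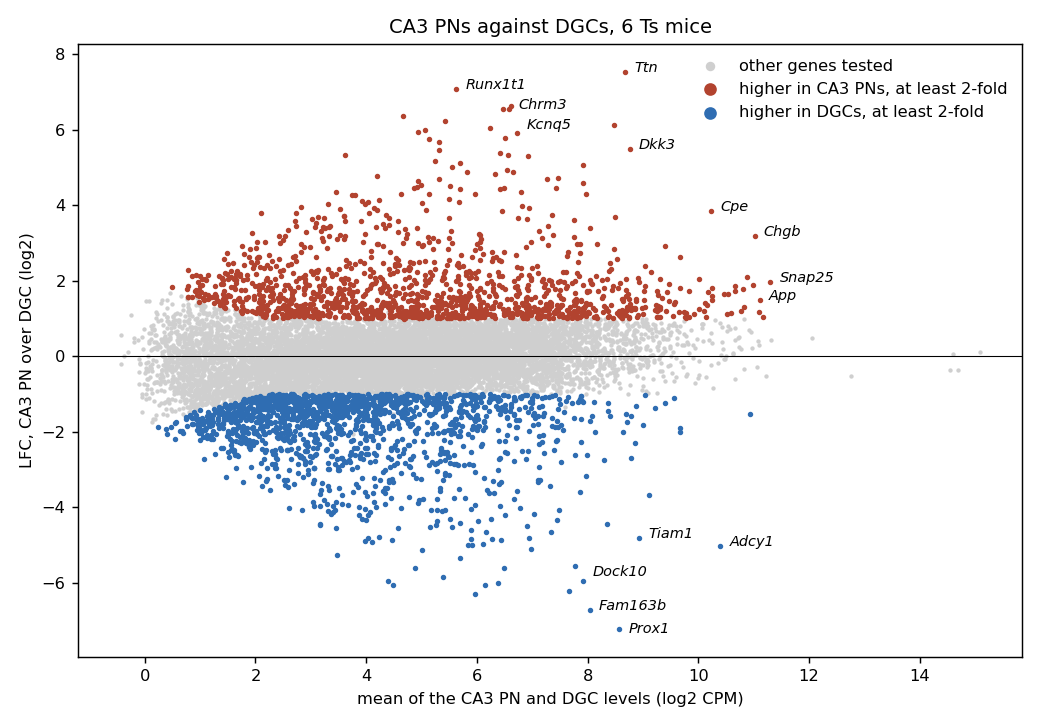
LFC of CA3 PNs over DGCs (log2, vertical) against the mean level of both populations (log2 CPM, horizontal) for the 13272 genes tested in 6 Ts mice, with called genes that differed at least 2-fold in red (1281, higher in CA3 PNs) and blue (1506, higher in DGCs) and other genes in grey. Ttn and Prox1 are at the upper and lower ends, and Adcy1 combines a high level with an LFC of -5.03.

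Both populations carried the markers of their label. Bok, a BCL2 family gene, was at 82.2, 96.4 and 127 CPM in CA3 PNs and at 2.34, 5.02 and 6.75 CPM in DGCs (LFC 4.43 ± 0.19 SE, adjusted p = 4.36e-31). Nectin3, an immunoglobulin-like cell adhesion molecule, stood at 194, 243 and 258 CPM in CA3 PNs and at 4.67, 14.6 and 24.1 CPM in DGCs (LFC 3.94 ± 0.18). For Cpne4, a calcium-dependent membrane-binding copine, the levels were 281, 307 and 320 CPM against 65.7, 86.7 and 114 CPM (LFC 1.80 ± 0.09). The 6 CA3 PN libraries lay above the 6 DGC libraries for all 3 genes. Prox1, the homeobox factor that specifies granule cell identity, was at 2.40, 5.44 and 7.34 CPM in CA3 PNs and at 694, 754 and 811 CPM in DGCs (LFC -7.22 ± 0.12, adjusted p = 1.37e-54). Dsp, which encodes desmoplakin, had 2 counts over the 6 CA3 PN libraries and 4538 over the 6 DGC libraries. Of the other fixed markers, Iyd (LFC 5.17) and Grik4 (LFC 2.12) were higher in CA3 PNs and Dock10 (LFC -5.96) in DGCs, again with no overlap between the populations. Summed over the CA3 PN list, the CA3 PN libraries held 752.5 to 834.5 CPM and the DGC libraries 129.6 to 188.3 CPM, and over the granule cell list the CA3 PN libraries held 9.46 to 18.8 CPM and the DGC libraries 2362 to 2733 CPM.

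**Figure D2:**
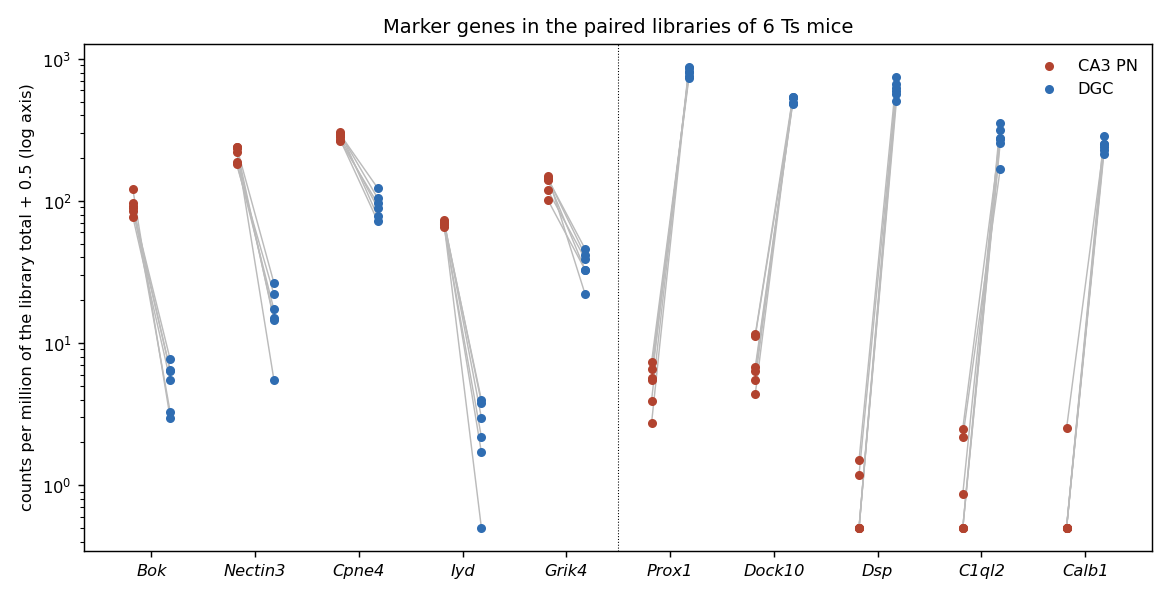
CPM of the library total, plus 0.5, on a log axis for 10 marker genes in each library of the 6 Ts mice, CA3 PNs in red and DGCs in blue, with a line joining both libraries of 1 mouse; CA3 PN markers are left of the dotted line and DGC markers right of it. The marked populations do not overlap for Bok, Nectin3, Cpne4, Prox1 or Dsp.

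The bases just upstream of the start sites of these 5 defining markers are shown because the markers set the populations apart. They come from RefSeq promoters on GRCm38.p6, a build other than that of the count files (GRCm39), and each run covers the 200 bases before a start site. Capitals mark matches, on either strand, to 5 strings searched: the neurogenic E-box with the letters CAGATG, the cAMP response element with the letters TGACGTCA, the site of AP-1 with the letters TGACTCA, the GC box bound by SP1 with the letters GGGCGG and the TATA box of basal promoters with the letters TATAAA. The windows are chr1:93685375-93685574, plus strand (Bok), chr16:46496968-46497167, minus strand (Nectin3), chr9:104569455-104569654, plus strand (Cpne4), chr1:190170828-190171027, minus strand (Prox1), and chr13:38151094-38151293, plus strand (Dsp). Cpne4 and Prox1 each had 2 promoters in the RefSeq set, of which 1 is shown.
Bok: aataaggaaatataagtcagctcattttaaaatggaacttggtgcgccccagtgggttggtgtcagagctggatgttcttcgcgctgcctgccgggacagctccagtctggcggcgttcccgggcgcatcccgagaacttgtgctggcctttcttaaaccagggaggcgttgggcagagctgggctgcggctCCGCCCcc
Nectin3: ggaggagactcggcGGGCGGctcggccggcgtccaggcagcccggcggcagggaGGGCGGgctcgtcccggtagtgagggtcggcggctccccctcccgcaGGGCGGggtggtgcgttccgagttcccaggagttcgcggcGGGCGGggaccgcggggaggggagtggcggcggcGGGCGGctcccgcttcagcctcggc
Cpne4: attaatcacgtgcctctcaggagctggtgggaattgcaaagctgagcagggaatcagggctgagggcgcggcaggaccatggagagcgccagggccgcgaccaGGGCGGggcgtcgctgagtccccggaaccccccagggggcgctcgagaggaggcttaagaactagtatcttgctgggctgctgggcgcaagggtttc
Prox1: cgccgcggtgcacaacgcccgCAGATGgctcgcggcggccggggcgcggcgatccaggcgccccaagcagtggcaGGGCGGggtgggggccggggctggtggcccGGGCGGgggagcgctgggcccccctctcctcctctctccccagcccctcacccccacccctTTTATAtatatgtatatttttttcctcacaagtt
Dsp: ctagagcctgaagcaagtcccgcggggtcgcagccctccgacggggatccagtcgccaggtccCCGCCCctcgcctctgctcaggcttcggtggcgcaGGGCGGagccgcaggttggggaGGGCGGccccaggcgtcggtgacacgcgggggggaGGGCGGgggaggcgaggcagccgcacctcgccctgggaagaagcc
GC boxes were present in all 5 windows, and the Prox1 window alone held the E-box letters and, on the reverse strand, the TATA letters. The E-box string was found within 250 bases upstream in 10.9% of the promoters of genes at least 2-fold higher in CA3 PNs, in 11.8% of those at least 2-fold higher in DGCs and in 9.81% of the promoters of all protein-coding genes tested. The GC box was in 58.8%, 53.5% and 58.3% of the same sets, the TATA string in 5.17%, 7.82% and 5.98%, the cAMP response element in 2.34%, 2.40% and 2.65% and the AP-1 string in 3.23%, 2.84% and 2.79%. The sets had a RefSeq promoter for 914 of 1209, 839 of 1088 and 9071 of 11547 genes. A match is a description of letters and was not tested as a site.

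Markers of other cells that the cuts could hold were present, and the astrocyte sum in CA3 PNs exceeded that of the 5 CA3 PN markers (752.5 to 834.5 CPM). The 12 astrocyte markers summed to 1884 to 2702 CPM in CA3 PNs and 905 to 1171 CPM in DGCs. Of these, 7 (58.3%, beside 25.8% of all genes tested) were higher in CA3 PNs (4 with library totals). They were led by the glutamate transporter gene Slc1a2 (1628, 2175 and 2573 CPM against 579, 640 and 866 CPM, LFC 1.66). Among 9 tested oligodendrocyte markers, 6 (66.7%) were higher in CA3 PNs, including the myelin gene Mobp (LFC 2.21). Their sums were 252 to 443 CPM against 183 to 259 CPM. Vascular markers summed to 37.3 to 50.3 CPM and 20.8 to 32.6 CPM, with 5 of 9 (55.6%) higher in CA3 PNs (3 with library totals). Microglia marker sums were 32.9 to 60.3 CPM in CA3 PNs and 52.5 to 68.8 CPM in DGCs. Markers of hilar mossy cells other than Ttn and Ociad2 were nearly absent: Calb2, Nmb, Drd2 and Csf2rb2 each had at most 10 counts in all over either population. Inhibitory neuron markers summed to 348 to 417 CPM in CA3 PNs and 362 to 590 CPM in DGCs. Of 12 tested, 4 were higher in CA3 PNs, among them the cannabinoid receptor gene Cnr1 (LFC 1.12), the neuregulin receptor gene Erbb4 (0.77) and the vesicular GABA transporter gene Slc32a1 (0.68), and 2 in DGCs, of which Gad1, which encodes an enzyme of GABA synthesis and is also transcribed by granule cells, had an LFC of -1.34. With library totals the split was 3 and 3. In the main fit the shares were 33.3% and 16.7%, beside 25.8% and 24.6% of all genes tested. The part of the glial and vascular RNA in the differences given here was not tested, and in such pooled cuts fewer cells of a type and less RNA per cell cannot be told apart.

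Among tested protein-coding genes with a mean of at least 50 CPM in the higher population, the largest LFCs toward CA3 PNs were led by Ttn (chr2:76534136-76812891, minus strand, GRCm39), the titin gene, which is best known from muscle. Ttn was at 528, 728 and 1475 CPM in CA3 PNs and at 1.10, 3.67 and 10.1 CPM in DGCs (LFC 7.53 ± 0.23, adjusted p = 5.69e-09). Its highest CA3 PN value came from mouse 16-357, and without that mouse the LFC was 7.20. Next were Runx1t1, a transcriptional corepressor (LFC 7.07), Sulf2, an extracellular heparan 6-O-endosulfatase (6.64), and Chrm3, the M3 muscarinic acetylcholine receptor (6.54). The Hippo pathway kinase gene Lats2 (6.54), the matrix proteoglycan gene Spock1 (6.13), the sialyltransferase gene St8sia5 (6.05) and the malic enzyme gene Me1 (6.00) followed, with Cntnap5c (6.24), a member of the contactin-associated family, between them. Il34, a ligand of the receptor on which microglia depend, was at 51.4, 59.4 and 69.3 CPM in CA3 PNs and at 0, 0.670 and 2.34 CPM in DGCs (LFC 5.93 ± 0.29). The populations were separate for every gene of this set, beside 28.8% of all genes tested. The set was chosen for large LFCs with the same direction in all 6 mice, so this is no added support.

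Toward DGCs, by the same criteria, Prox1 (chr1:189850232-189904637, minus strand, GRCm39) was followed by Fam163b (2.99, 4.44 and 8.39 CPM in CA3 PNs against 501, 511 and 586 CPM in DGCs, LFC -6.73 ± 0.12). Cemip, a hyaluronan-binding protein needed for its breakdown, had an LFC of -6.30, Stxbp6 (amisyn, a regulator of SNARE complexes) of -6.21, the membrane cytoskeleton gene Epb41 of -6.06 and Spon1 (F-spondin) of -6.0. Ndst4, which sulfates heparan (LFC -5.84), the cAMP phosphodiesterase gene Pde7b (-5.62), the cation channel gene Trpc6 (-5.61), the giant cadherin gene Fat4 (-5.55) and the transcription factor gene Glis3 (-5.35) completed, with Dock10, the 12 largest among these tested genes. No DGC library overlapped with a CA3 PN library for these 12 genes, which again follows largely from how they were chosen.

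The filter kept genes with a count in at least 10 of the 12 libraries, so genes that are nearly absent from 1 population were not tested. They include classic granule cell genes, here given as pooled counts over 6 CA3 PN and 6 DGC libraries with the ratio of CPM and its exact 95% interval, which covers counting error only. C1ql3 and C1ql2, secreted proteins that organize mossy fiber synapses, had 2 and 2596 counts (ratio 1719, interval 475 to 14204) and 6 and 1955 counts (432, 198 to 1177). Calb1, the calcium buffer calbindin, had 3 and 1745 counts (770, 263 to 3739), and Doc2b, a calcium sensor of vesicle release, 3 and 1447 (639, 218 to 3101). Grm2, a presynaptic metabotropic glutamate receptor of mossy fibers, had 4 and 1307 counts (433, 169 to 1591), and the opioid peptide precursor Pdyn 1 and 259 (343, 61.0 to 13601). Onecut1, a transcription factor, had 0 counts in CA3 PNs and 304 in DGCs, at least 134-fold higher against a floor of 3 counts over the group.

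On the CA3 side of the same class, Sv2b, a synaptic vesicle glycoprotein, had 9896 counts in CA3 PNs and 5 in DGCs (ratio 1494, 640 to 4603). Neurod6, a basic helix-loop-helix factor of pyramidal neurons, had 4720 and 3 (1188, 406 to 5762), and the protein kinase C delta gene Prkcd 2159 and 4 (408, 159 to 1497). Cd109 had 752 counts in CA3 PNs and 0 in DGCs (at least 189-fold higher), and Klk8, the protease neuropsin, 228 and 0 (at least 57.4-fold higher). Sst, the peptide somatostatin, a marker of interneurons and not of pyramidal cells, had 164 counts in CA3 PNs and 2 in DGCs (61.9, 16.9 to 516). A looser filter tested 88 further genes, of which 38 were called higher in CA3 PNs and 47 in DGCs. Such genes could be tested only through the population where they were high, and the counts are no support for either direction.

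Transcription factors of the subfields leaned to DGCs: of 52 tested, 27 (51.9%) were higher in DGCs and 9 (17.3%) in CA3 PNs. The shares of all genes tested were 24.6% and 25.8%. The median LFC of the list was -0.40, beside -0.03 for all genes. Rfx3, a regulator of ciliary genes, was at 24.9, 25.9 and 39.8 CPM in CA3 PNs and at 561, 627 and 668 CPM in DGCs (LFC -4.45). Mef2c, an activity-regulated factor that restrains synapse number, had an LFC of -3.59, and Foxo1, a target of insulin signaling, one of -3.55. Sox5, a SOX factor of cortical projection neurons, was at 27.3, 29.9 and 38.3 CPM in CA3 PNs and at 0.662, 2.22 and 4.68 CPM in DGCs (LFC 3.81). Etv5 (LFC 2.10) and the LIM-only cofactor gene Lmo4 (LFC 1.97) were also higher in CA3 PNs. The libraries of both populations were apart for each of these 6 genes, which were chosen as the largest called differences of the list.

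Of the ionotropic glutamate receptor subunit genes, 3 of 4 AMPA and 4 of 5 kainate genes were called, beside 50.5% of all genes tested. For Gria1 and Gria2, which encode the main AMPA subunits, differences were small, with 1231, 1416 and 1502 CPM against 1400, 1438 and 1534 CPM for Gria1 (LFC -0.07, adjusted p = 0.255, or -0.26 and 8.91e-06 with library totals) and an LFC of -0.19 for Gria2. Gria4 (LFC 0.52, adjusted p = 0.00573) and Gria3 (0.22, 0.00984) were higher in CA3 PNs, and neither was called with library totals or DESeq2. The kainate subunit genes were split: Grik4 was higher in CA3 PNs, at 106, 152 and 160 CPM against 20.2, 33.1 and 41.6 CPM, and so was Grik5 (LFC 0.60), both of which encode high-affinity subunits. Grik2 (LFC -0.82) and Grik3 (5.37, 6.06 and 10.5 CPM against 50.4, 74.4 and 94.1 CPM, LFC -3.48), which encode subunits that can form channels alone, were higher in DGCs. The kainate auxiliary genes Neto1 (LFC 1.81) and Neto2 (128, 144 and 191 CPM against 3.11, 4.84 and 9.19 CPM, LFC 4.84) were both higher in CA3 PNs. Of 13 AMPA auxiliary genes, 5 (38.5%) were higher in CA3 PNs and 6 (46.2%) in DGCs, beside 25.8% and 24.6% of all genes tested. Cacng2 (stargazin, LFC 1.89) and Shisa6 (1.27) were among those higher in CA3 PNs. Shisa9 (CKAMP44, 4.73, 5.61 and 7.51 CPM against 151, 163 and 206 CPM, LFC -4.87) and Cnih3 (LFC -4.40) were among those higher in DGCs.

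Among NMDA receptor genes, Grin1, the obligatory subunit, was higher in CA3 PNs (874, 902 and 955 CPM against 471, 500 and 585 CPM, LFC 0.83 ± 0.06). Grin2a (LFC -0.12, adjusted p = 0.0534) and Grin2b (LFC 0.05, adjusted p = 0.409) were not called, and their libraries overlapped. Grin2a was, however, called lower in CA3 PNs with limma-voom (adjusted p = 0.0134), filterByExpr (0.00627), thinning (0.00719) and library totals (LFC -0.31), and without each of 5 mice in turn (0.0135 to 0.0498; not without 17-153). With library totals Grin2b (-0.14) and Grm5 (-0.20) were also called lower in CA3 PNs. Grm5, which encodes mGluR5, was at 380, 424 and 458 CPM in CA3 PNs and at 379, 424 and 460 CPM in DGCs (LFC -0.01 ± 0.06, adjusted p = 0.910). Homer scaffold genes went apart, with Homer3 higher in CA3 PNs (LFC 2.26) and Homer2 higher in DGCs (-1.20).

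To compare subunits with each other, shares of the summed transcript abundance (TPM, which are per transcript length) of each family were computed and tested by an exact sign-flip test over the 6 mice, whose smallest possible p is 0.03125. All 6 mice moved the same way in 19 of 26 subunits, each at that smallest p (adjusted p = 0.0428). Grik4 was 22.2% ± 2.44 (SD, n = 6) of kainate TPM in CA3 PNs and 5.53% ± 1.65 in DGCs, and Grik2 22.3% ± 3.98 and 44.1% ± 2.73. Grin1 made up 57.8% ± 3.48 of NMDA TPM in CA3 PNs and 40.3% ± 3.18 in DGCs. Shares of Grin2a (16.1% against 26.1%) and Grin2b (25.4% against 32.6%) were lower in CA3 PNs, though neither level was called in the main fit. Grm2 was 0.135% ± 0.222 of metabotropic glutamate receptor TPM in CA3 PNs and 23.9% ± 3.66 in DGCs. Shares of Gria1 (39.9% and 38.8%, exact p = 0.25) and Gria2 (48.4% and 51.9%, exact p = 0.0625) did not pass.

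**Figure D3:**
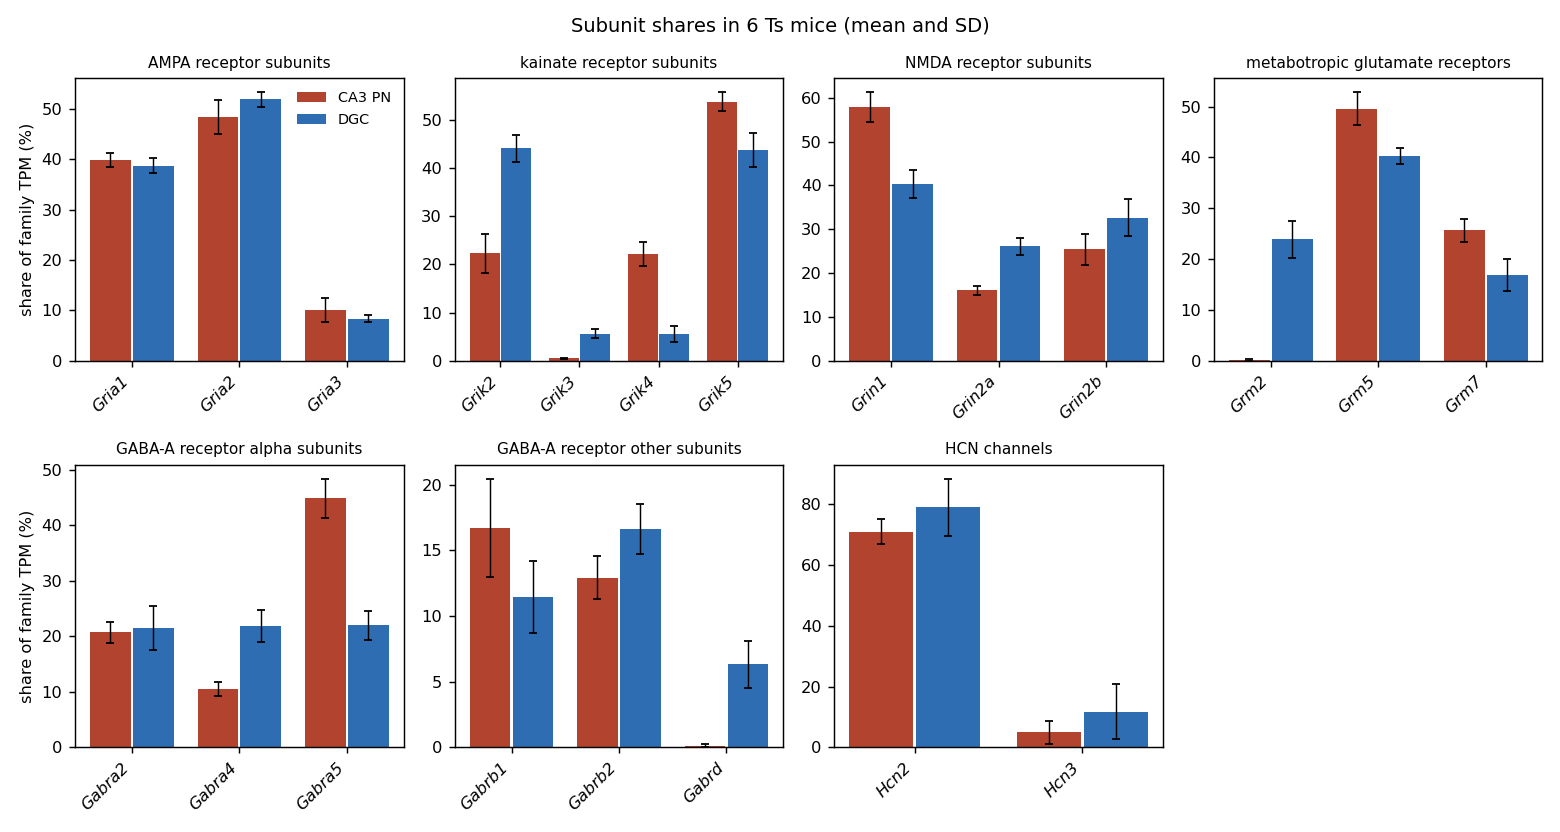
Share of the family's summed TPM (%, vertical) for each subunit of 7 receptor and channel families in CA3 PNs (red) and DGCs (blue), as bars of the mean over 6 Ts mice with SD. Grik4, Grin1 and Gabra5 hold larger shares in CA3 PNs, and Grik2, Grm2, Gabra4 and Gabrd larger shares in DGCs; 5 subunits are not drawn.

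GABA-A receptor genes differed by subunit. Gabra5, whose subunit is found mostly outside synapses, was higher in CA3 PNs (214, 243 and 282 CPM against 115, 131 and 146 CPM, LFC 0.89) and made up 44.8% ± 3.53 of alpha subunit TPM there and 22.0% ± 2.63 in DGCs. Gabra4 (LFC -1.06) and Gabrb2 (-0.65) were higher in DGCs. Gabrd, the delta subunit of tonic inhibition, was at 0, 0.693 and 1.07 CPM in CA3 PNs and at 29.6, 43.0 and 52.3 CPM in DGCs (LFC -5.96 ± 0.34). Shares of Gabra2 were 20.7% and 21.5% and did not pass (exact p = 0.5625).

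For GABA-B signaling, the receptor and its effector channels went in opposite directions. Gabbr1 (LFC 0.52) and Gabbr2 (LFC 0.58), the subunits of the receptor dimer, were higher in CA3 PNs. Kcnj3 (118, 137 and 172 CPM against 252, 320 and 356 CPM, LFC -1.19), Kcnj9 (LFC -2.53) and the triplicated Kcnj6 (LFC -0.65), which encode G protein-gated potassium channel subunits, were higher in DGCs. In all, 2 of the 8 tested members of this list (25.0%) were higher in CA3 PNs and 6 (75.0%) in DGCs. All genes tested gave 25.8% and 24.6%.

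Voltage-gated sodium channel genes leaned to CA3 PNs: 8 of 12 (66.7%) were higher there and 1 (8.3%) in DGCs, or 8 and 2 with library totals. The shares of all genes tested were 25.8% and 24.6%. The beta subunit gene Scn4b was higher in CA3 PNs (34.3, 45.5 and 66.0 CPM against 1.15, 2.49 and 3.29 CPM, LFC 4.30) and Scn3a in DGCs (LFC -1.79). Of 15 calcium channel genes, 8 (53.3%) were higher in CA3 PNs and 2 (13.3%) in DGCs. With library totals the calcium channel split was 6 and 5, beside 2523 and 4459 of all genes. The presynaptic P/Q-type and N-type genes Cacna1a (LFC 1.51) and Cacna1b (1.02) were higher in CA3 PNs. The T-type gene Cacna1h was higher in DGCs (71.9, 78.7 and 88.9 CPM against 179, 286 and 373 CPM, LFC -1.81).

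Tested potassium channel genes were divided almost evenly: 14 of 27 voltage-gated alpha subunit genes (51.9%) were higher in CA3 PNs and 11 (40.7%) in DGCs. The shares of all genes tested were 25.8% and 24.6%. That split leaves out members outside the filter, whose counts were higher in DGCs. Kcnc4 had 5 counts in CA3 PNs and 753 in DGCs, Kcna3 4 and 89, Kcnh4 0 and 28, and Kcna5 0 and 8. Kcnq5, an M-current subunit, was at 170, 202 and 252 CPM in CA3 PNs and at 1.15, 3.07 and 6.57 CPM in DGCs (LFC 5.92), and Kcnc2, a fast delayed rectifier (Kv3.2), had an LFC of 4.43. Kcnh7 (LFC -4.04), of the ERG family, and Kcna4 (-1.40), an A-type channel of axons, were higher in DGCs. Outside that list, DGCs had more of the leak channel Kcnk9 (TASK-3; 0, 8.12 and 10.3 CPM against 111, 151 and 161 CPM, LFC -4.32) and of the inward rectifier Kcnj4 (LFC -2.85), whereas CA3 PNs had more Kcnk4 (TRAAK, LFC 4.10) and Kcnma1 (the BK channel, 0.87).

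Calcium handling was also unequal. Of 35 calcium-binding and calmodulin pathway genes, 23 (65.7%) were higher in CA3 PNs and 4 (11.4%) in DGCs (median LFC 0.70). The shares of all genes tested were 25.8% and 24.6%. Gap43, a growth cone protein that binds calmodulin (LFC 4.53), Camk4 (2.98) and Vsnl1 (visinin-like 1, 521, 545 and 608 CPM against 104, 114 and 128 CPM, LFC 2.27) were among the higher ones, and Camk2g was higher in DGCs (-1.08). Pcp4, a small calmodulin regulator and 1 of the triplicated genes, was at 4.94, 10.7 and 36.7 CPM in CA3 PNs and at 157, 212 and 233 CPM in DGCs (LFC -4.02, or -4.46 without mouse 16-357, which had the highest CA3 PN value). Slc8a1, the sodium-calcium exchanger NCX1, was at 604, 685 and 739 CPM in CA3 PNs and at 44.9, 49.5 and 59.3 CPM in DGCs (LFC 3.70). The ryanodine receptor genes split, Ryr3 being higher in CA3 PNs (LFC 1.44) and Ryr1 in DGCs (-3.25).

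Second messenger genes held some of the most abundant transcripts of the contrast. Adcy1 (chr11:7013330-7128506, plus strand, GRCm39), a calcium-stimulated adenylyl cyclase required for mossy fiber potentiation, was at 54.7, 73.1 and 121 CPM in CA3 PNs and at 2376, 2684 and 2864 CPM in DGCs (LFC -5.03 ± 0.10, adjusted p = 1.63e-14). The conventional protein kinase C genes Prkca (838, 888 and 920 CPM against 144, 168 and 201 CPM, LFC 2.40) and Prkcb (LFC 2.47) were higher in CA3 PNs. The calmodulin-dependent phosphodiesterases were split between the populations, as Pde1a was higher in CA3 PNs (158, 184 and 215 CPM against 0, 3.24 and 12.6 CPM, LFC 5.34) and Pde1b in DGCs (LFC -3.43). Among regulators of small GTPases, the Rac activator Tiam1 (LFC -4.81), its paralog Tiam2 (-4.67) and Rasgrf2 (-4.08) were higher in DGCs. Of 31 genes of cAMP, PKA and PKC signaling, 18 (58.1%) were higher in CA3 PNs and 10 (32.3%) in DGCs, beside 25.8% and 24.6% of all genes tested.

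Transmitter release genes were higher in CA3 PNs as a group: 28 of 38 SNARE and vesicle release genes (73.7%) were higher there and 4 (10.5%) in DGCs. The shares of all genes tested were 25.8% and 24.6%. The median LFC of the list was 0.88. Outside the filter, and so not in these counts, Sv2b was higher in CA3 PNs. Doc2b and Sv2c (11 counts in CA3 PNs and 1041 in DGCs) were higher in DGCs. Snap25 was at 3598, 4046 and 4332 CPM in CA3 PNs and at 926, 1016 and 1149 CPM in DGCs (LFC 1.98 ± 0.05), with Stx1a (LFC 2.77), the calcium sensor gene Syt1 (1.73) and the active zone scaffold gene Pclo (1.88) likewise higher. Slc17a7, the vesicular glutamate transporter VGLUT1, was at 1551, 1637 and 1758 CPM against 577, 624 and 706 CPM (LFC 1.37). DGCs had more of Slc30a3 (31.5, 34.4 and 40.1 CPM against 64.6, 93.2 and 116 CPM, LFC -1.35), the transporter that fills mossy fiber vesicles with zinc, and of Syn3 (-1.96). The synaptotagmin family was divided, with Syt12 (LFC 3.02) higher in CA3 PNs and Syt10 (-4.82) and Syt17 (-5.13) in DGCs.

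Axon guidance and adhesion genes gave large differences in both directions. Sema3e, a secreted semaphorin, was at 227, 236 and 246 CPM in CA3 PNs and at 3.94, 5.86 and 10.3 CPM in DGCs (LFC 5.30), and Plxna1 (LFC 3.40), Robo1 (3.62), its ligand gene Slit2 (3.14), the netrin receptor gene Dcc (2.16) and Ephb1 (2.56) were also higher in CA3 PNs. Netrin-G1 (Ntng1; 7.05, 10.1 and 14.7 CPM against 128, 155 and 199 CPM, LFC -3.96) and Efnb3 (-3.52), a ligand of EphB receptors, were higher in DGCs. Of 24 semaphorin, plexin and neuropilin genes tested, 11 (45.8%) were higher in CA3 PNs and 7 (29.2%) in DGCs (9 and 10 with library totals). Of 16 ephrin and Eph genes, 9 (56.2%) and 5 (31.2%) were. The shares of all genes tested were 25.8% and 24.6%, and the split of all calls with library totals was 2523 and 4459.

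Of 40 synaptic adhesion genes, 14 (35.0%) were higher in CA3 PNs and 15 (37.5%) in DGCs (12 and 20 with library totals). The shares of all genes tested were 25.8% and 24.6%, and the split of all calls with library totals was 2523 and 4459. Cntnap2 (CASPR2, which clusters potassium channels on axons, LFC 3.44), Tenm4 (3.32) and Nrxn3 (1.93) were on the CA3 side. Lrrtm4, a postsynaptic organizer, was at 10.6, 13.5 and 18.9 CPM in CA3 PNs and at 222, 251 and 268 CPM in DGCs (LFC -4.19), and Gpc4, a glypican that binds it, was at 1.41, 4.88 and 8.39 CPM and at 105, 109 and 132 CPM (LFC -4.60), both apart without overlap. Among matrix genes, Hapln4, a link protein of perineuronal nets, was higher in CA3 PNs (LFC 4.88) and the net proteoglycan Acan in DGCs (0, 1.44 and 3.15 CPM against 8.44, 15.2 and 25.3 CPM, LFC -3.54). Col4a2, a basement membrane collagen, was at 112, 137 and 166 CPM in CA3 PNs and at 17.9, 29.4 and 37.7 CPM in DGCs (LFC 2.24), in libraries whose vascular marker sums were also higher in CA3 PNs. In the Wnt list, 5 of 22 genes (22.7%, near the 25.8% of all genes) were higher in CA3 PNs and 9 (40.9%) in DGCs. Dkk3 was higher in CA3 PNs, at 832, 845 and 885 CPM against 13.8, 17.9 and 24.8 CPM (LFC 5.49). The planar polarity gene Vangl2 was higher in DGCs (-4.78).

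Receptors for modulators differed by transmitter and subtype. Besides Chrm3, Htr2a (serotonin 2A, LFC 4.35) was higher in CA3 PNs, at 14.1, 21.8 and 27.1 CPM against 0, 0.721 and 2.19 CPM. Npy1r, the Y1 receptor for neuropeptide Y (1.07, 3.93 and 7.49 CPM against 83.8, 88.0 and 94.2 CPM, LFC -4.31), Adcyap1r1, the receptor for PACAP (-3.78), and Htr4 (serotonin 4, -2.93) were higher in DGCs. Over the list, 13 of 31 tested receptors (41.9%) were higher in CA3 PNs and 8 (25.8%) in DGCs, or 11 and 10 with library totals. The shares of all genes tested were 25.8% and 24.6%, so the DGC share was near that of all genes. With library totals all genes split into 2523 and 4459 calls. Secretory granule genes were split, with Chgb (chromogranin B; 3269, 3737 and 4138 CPM against 337, 417 and 507 CPM, LFC 3.19) and the peptide gene Cck (2.97) higher in CA3 PNs and Scg2 (secretogranin II, -2.27) higher in DGCs. Ntrk2, the receptor of BDNF, was higher in CA3 PNs (LFC 0.89), and Gfra1, a receptor of GDNF (-2.84), and Igfbp5, a binding protein of insulin-like growth factors (4.33, 7.99 and 9.54 CPM against 141, 262 and 292 CPM, LFC -5.11), in DGCs.

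Immediate early genes were mostly higher in CA3 PNs, 17 of 25 (68.0%) against 4 (16.0%) higher in DGCs (median LFC 0.92). The shares of all genes tested were 25.8% and 24.6%. The orphan nuclear receptor gene Nr4a3 was at 423, 482 and 529 CPM in CA3 PNs and at 11.2, 23.4 and 44.8 CPM in DGCs (LFC 4.30), the synaptic gene Arc at an LFC of 2.36 and the ERK phosphatase gene Dusp6 at 4.31. Jun (36.7, 56.3 and 95.5 CPM against 312, 370 and 441 CPM, LFC -2.62) and Fosl2 (-1.35), which encode parts of AP-1, went the other way. Of 11 tested genes of immature granule cells and progenitors, 6 (54.5%) were higher in DGCs and 2 (18.2%) in CA3 PNs. Those higher in DGCs included Sox11 (LFC -2.76), Dpysl5 (-2.94) and Neurod1 (-0.99). Dpysl5 was low in both populations, at no more than 35.1 CPM in DGCs and 5.24 CPM in CA3 PNs, without overlap.

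Most called genes of energy metabolism and of the cytoskeleton were higher in CA3 PNs, and most called ribosomal protein genes in DGCs. Of 17 glycolytic genes, 15 (88.2%) were higher in CA3 PNs (median LFC 1.15). They included Pfkp (402, 422 and 458 CPM against 92.0, 99.1 and 124 CPM, LFC 2.02), Eno1 (2.00) and Ldha (1.77). Of 78 nuclear-encoded subunits of oxidative phosphorylation, 42 (53.8%) were higher in CA3 PNs (median LFC 0.44), with Ndufa10 at an LFC of 0.97. None of them was higher in DGCs in the main fit, and with library totals the split was 33 and 4. The astrocyte marker sums given above were higher in the same CA3 PN libraries. Of 34 neurofilament and microtubule genes, 22 (64.7%) were higher in CA3 PNs and 4 (11.8%) in DGCs. Those higher in CA3 PNs included Tubb4a (1196, 1417 and 1531 CPM against 200, 220 and 275 CPM, LFC 2.62), the heavy neurofilament gene Nefh (2.56) and the tubulin regulator gene Stmn2 (5.06). Cytosolic ribosomal protein genes formed the opposite case: 46 of 78 (59.0%) were higher in DGCs and 1 (1.3%) in CA3 PNs. Their median LFC was -0.45, with Rpl30 at 19.3, 25.3 and 30.3 CPM against 49.0, 61.3 and 90.5 CPM. Beside these 4 lists, the shares of all genes tested were 25.8% and 24.6%. The sign of the median LFC of these 4 lists was kept under each scaling and filter tried.

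**Figure D4:**
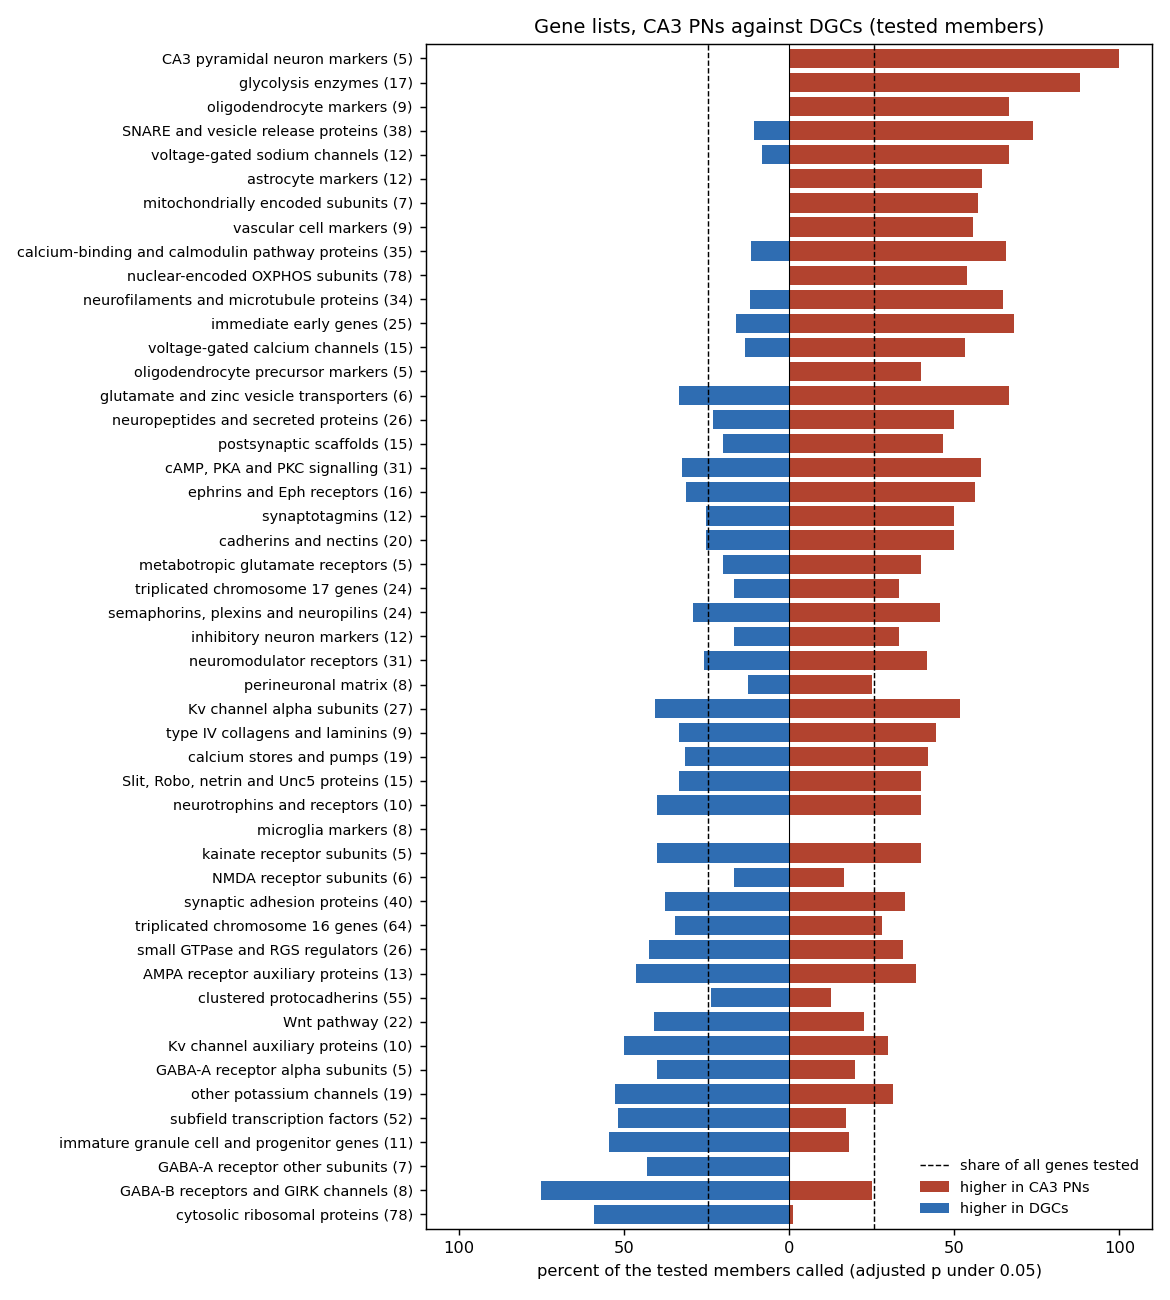
Percent of the tested members of 49 gene lists (number tested in brackets) that were called higher in CA3 PNs (red, right) or higher in DGCs (blue, left), with dashed lines at the shares of all genes tested, 25.8% and 24.6%. Toward CA3 PNs the glycolysis list reaches 88.2% and the SNARE and vesicle release list 73.7%, and toward DGCs the GABA-B and GIRK list reaches 75.0%.

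By gene type, few long noncoding RNAs were higher in CA3 PNs, 49 of 689 tested (7.11%), beside 25.8% of all genes tested. Those higher in DGCs numbered 178 (25.8%), near the 24.6% of all genes tested. Protein-coding genes gave 28.8% higher in CA3 PNs and 23.9% higher in DGCs. Protein-coding reads made up 86.6% to 88.7% of counts in CA3 PNs and 82.6% to 84.7% in DGCs, so this share moved with the population. Median gene spans were 29.3 kb for all protein-coding genes tested, 34.9 kb for those at least 2-fold higher in CA3 PNs and 46.6 kb for those at least 2-fold higher in DGCs.

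The added gene copy was visible in both populations. Among chromosome 16 triplicated genes at 10 CPM or more, the median ratio of Ts over 2N was 1.49 in CA3 PNs (48 genes) and 1.47 in DGCs (52 genes), beside 0.996 and 0.987 over all genes of that level, and for chromosome 17 genes 1.48 and 1.54. Between the populations of Ts mice, 18 of 64 tested chromosome 16 triplicated genes were higher in CA3 PNs (28.1%, near 25.8% of all genes). Another 22 were higher in DGCs (34.4%, above the 24.6% of all genes tested). With library totals the split was 14 and 25, beside 2523 and 4459 of all genes. App, the amyloid precursor gene, was at 3043, 3325 and 3392 CPM in CA3 PNs and at 1103, 1127 and 1243 CPM in DGCs (LFC 1.5 ± 0.05). Synj1, a phosphatase of synaptic vesicle recycling (LFC 1.69), the calcineurin regulator gene Rcan1 (1.21) and the kinase gene Hunk (3.00) were also higher in CA3 PNs. Tiam1 (26.1, 33.9 and 38.6 CPM against 888, 936 and 1038 CPM), Pcp4, Kcnj6, the protease gene Adamts1 (-1.73) and the kinase gene Dyrk1a (152, 164 and 198 CPM against 200, 214 and 236 CPM, LFC -0.35) were higher in DGCs. Sod1, superoxide dismutase, was close in both (LFC 0.20, adjusted p = 0.0482). Its call was lost with library totals (LFC 0.006, adjusted p = 0.963), DESeq2 (0.233), filterByExpr (0.103) and thinning (0.0574), and without the block (0.0569). The Sod1 call was also lost without any 1 of 5 mice (16-490, 17-153, 17-157, 17-173 or 17-192, highest adjusted p of these 0.195). Grik1 was low and not called (LFC 0.84 ± 0.46, adjusted p = 0.121), though it was called without mouse 17-173 (LFC 1.24) or 17-192 (1.15). Of 24 chromosome 17 triplicated genes, 8 were higher in CA3 PNs (33.3%), including Synj2, a paralog of Synj1 (154, 166 and 185 CPM against 0, 4.16 and 7.0 CPM, LFC 5.37), and 4 in DGCs (16.7%), including Tiam2, the paralog of Tiam1. That split was 5 and 6 with library totals and 5 and 5 with filterByExpr. All genes split into 2523 and 4459 calls with library totals and 2988 and 2967 with filterByExpr.

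Whether the contrast itself differed between genotypes was tested with a genotype by population term over the 6 Ts and 5 2N mice. The term was called at 47 of 16214 genes (0.29%), with 1005 genes (6.2%) at an unadjusted p under 0.05. The number changed with the fit, to 6 without the mouse as a block, 2 with DESeq2, and 21, 23 and 25 without mouse 17-154, 17-192 or 17-21. Jun was at 36.8, 56.8 and 95.6 CPM in Ts CA3 PNs and at 16.9, 22.8 and 43.2 CPM in 2N CA3 PNs, with 306, 370 and 440 CPM and 300, 357 and 401 CPM in DGCs (LFC -2.61 in Ts and -3.56 in 2N, adjusted p of the difference 5.83e-07, and 0.501 without the block). Arhgef10l, a guanine nucleotide exchange factor, was at 1.60, 3.41 and 8.40 CPM in Ts CA3 PNs and at 8.30, 13.5 and 23.1 CPM in 2N CA3 PNs, with LFCs of -2.52 in Ts and -0.07 in 2N, and the difference was called with the block (adjusted p = 8.42e-06) and without it (0.00107). Fam163b was lower in Ts CA3 PNs (3.00, 4.48 and 8.40 CPM) than in 2N CA3 PNs (8.73, 12.2 and 23.1 CPM) and its difference of -1.30 was also called both ways (adjusted p = 0.000347 and 0.00107), as was Crtac1 (1.24, 0.000192 and 0.0115). Under DESeq2 the adjusted p was 0.0278 for Arhgef10l, 0.918 for Fam163b and 0.168 for Crtac1. The difference for Adcy1 was -0.67 (adjusted p = 0.000243 with the block and 0.52 without it). Of the 13 genes named here or in the closing section with a called term, 10 lost the call without the block and 11 under DESeq2. Gm20458, the gene with the largest difference, overlaps Sys1 and Dbndd2 on the same strand, so its reads are uncertain. Its medians were 1.80 and 7.18 CPM in Ts CA3 PNs and DGCs, and 8.30 and 0 CPM in those of 2N mice. All its 2N DGC values were 0, so the size of its difference rests on a level at the floor.

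**Figure D5:**
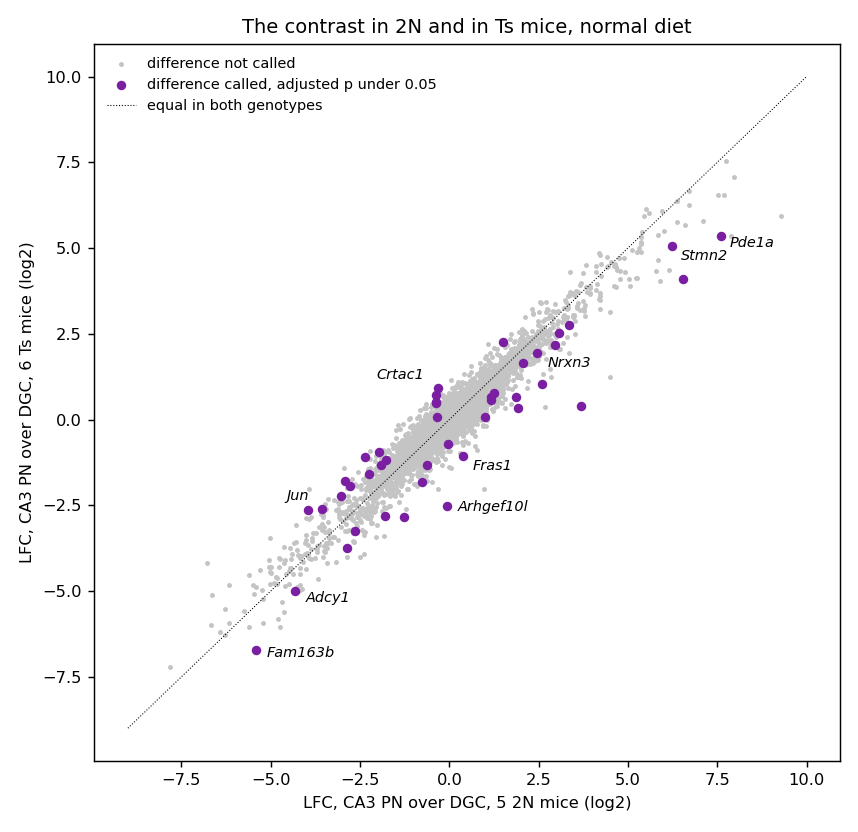
LFC of CA3 PNs over DGCs in 6 Ts mice (vertical) against that in 5 2N mice (horizontal), both log2, for genes at 10 CPM or more, with genes whose difference between genotypes was called in purple and the dotted line at equal LFC. Arhgef10l, Pde1a and Fam163b are among the labelled genes below it.

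The same contrast was run in the 7 Ts mice of the supplemented diet, which were not used above. It called 6879 of 13947 genes (49.3%), 3587 higher in CA3 PNs and 3292 in DGCs. Of the 6697 genes called in the normal diet, 6656 were tested and 6591 had the same direction (99.0%), beside 86.9% of all genes. Genes called in both sets numbered 5532, which is 82.6% of the normal diet calls and 80.4% of the supplemented diet calls. Whether the contrast differs between diets was not tested here.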

How the data were processed

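The libraries were made by the authors from LCM groups of neurons with a stranded total RNA kit for picogram inputs (SMARTer Pico) and sequenced on a NovaSeq. Per the paper's methods and the submitters' processing notes, reads were checked with FastQC 0.11.9, trimmed with Trimmomatic 0.39 where needed, aligned with STAR to GRCm39, checked with Picard 2.26.2 and quantified with RSEM. The authors deposited 1 matrix of expected counts per region and 1 RSEM file per library, with expected counts and TPM. The deposited TPM values are per transcript length and sum to the same total in each library. Of the expected counts above 0, 2.85% were not whole, and all were rounded. The authors' covariates (RNA concentration and read percentages) were not used here.

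Of 57010 identifiers, 56310 had a symbol in GENCODE M39. The main fit used edgeR 4.0.16 (TMM, robust quasi-likelihood, two-sided, Benjamini-Hochberg over all genes tested) in R 4.3.3, on genes over 0.1 CPM in at least 10 libraries, the minimum the study used, with the mouse as block. A minimum of 0.1 CPM amounts to 1 count in these libraries. Alternatives used library totals, DESeq2 1.42.0, limma 3.58.1 (voom), filterByExpr, no filter, counts thinned to 807078 per library, no block, and leaving out each mouse. Subunits with a mean share of at least 5% of their family in either population were tested by the exact sign-flip test. Intervals of count ratios are exact binomial ones and cover counting error only.

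Both libraries of a pair came from the same mouse. Residuals of same-mouse libraries correlated at 0.0802 to 0.153 (median 0.113, 7662 genes) and those of different mice at a median of -0.0249. One CA3 PN library, labelled Ts while the other libraries of its mouse are labelled 2N (mouse 15-145), was put in no group. Simulated data with 200 changed genes were tested first: for the contrast, 87 of 88 genes changed by a log2 fold of 1 and 112 of 112 changed by 2 were called in the right direction, with 5 false calls, and for the genotype term 78 of 98 and 102 of 102, with 15 false calls. Changed genes were drawn from those with a mean over 20 CPM, and no difference between mice was simulated. The simulation thus covers neither the recovery of low genes, nor the effect of the block, nor data where many genes differ, as here.

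Named genes were the markers, the 12 largest differences in each direction (protein-coding, the same direction in 6 mice, a mean of at least 50 CPM in the higher population), up to 4 called members of each list in each direction (a mean of at least 10 CPM), all members of lists of 10 or fewer genes, 8 triplicated genes and the genes with the smallest p of the genotype term. Genes outside the filter were chosen after their counts were seen. The members and lists were chosen with earlier results of these data known. No protein sequence was used here, and results for some genes are not reported here.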

Additional observations from a re-analysis of the deposited data

Results flagged for a closer look

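Of 334 sets of 6 libraries (a named gene in 1 population), 22 held a value far from the others by Dixon's criterion, where chance gives about 1 in 20. Mouse 16-357 had 7 of them in CA3 PNs and 4 in DGCs. In its CA3 PN library Ttn was at 1475 CPM, Spock1 at 616, Pcp4 at 36.7, Cntnap2 at 193, Dkk3 at 885, Dusp6 at 87.0 and Tiam2 at 18.9. In its DGC library Fam163b was at 586 CPM, Homer3 at 35.7, Efnb3 at 127 and Tubb4a at 275. Without this mouse the LFC was 7.20 for Ttn, -4.46 for Pcp4 and -5.25 for Tiam2, and all 11 genes stayed called in the same direction.

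The other values lay in different mice. In CA3 PNs these were Cntnap5c at 102 CPM and Homer3 at 126 (mouse 17-153), Syt17 at 5.13 (17-192), Gfra1 at 17.2 and Adamts1 at 18.2 (16-490) and Stmn2 at 532 (17-173). In DGCs these were Shisa9 at 206 CPM (17-157), Neto1 at 175, Grm7 at 179 and Syt17 at 31.8 (17-173) and Vangl2 at 63.1 (17-192).

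The genotype by population term, for a contrast that differs between Ts and 2N mice, was called for 13 named genes in the main fit. The LFC in Ts minus that in 2N was -7.45 for Gm20458, which was at 0 CPM in every 2N DGC library used. Its reads are uncertain, as it overlaps Sys1 and Dbndd2 on the same strand. The difference was 0.96 for Jun, -1.44 for the extracellular matrix gene Fras1, -2.45 for Arhgef10l and 1.24 for Crtac1. It was -0.67 for Adcy1, -1.30 for Fam163b, -0.49 for Nrxn3, -1.15 for Stmn2, -0.88 for Adcyap1r1, -0.71 for Slc30a3, -2.25 for Pde1a and 0.76 for Col4a2. Without the mouse as a block, edgeR's adjusted p was 0.00107 for Arhgef10l, 0.00107 for Fam163b and 0.0115 for Crtac1, and it was above 0.05 for the other 10. Under DESeq2 the adjusted p was 0.918 for Fam163b and 0.168 for Crtac1. Of 11 fits that each left out 1 mouse, 2 kept the call of Col4a2, 4 that of Slc30a3 and of Pde1a, and 6 that of Stmn2 and of Adcyap1r1. Pde1a was near the floor in DGCs, with medians of 3.24 CPM in Ts and 0.827 CPM in 2N mice.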

How the results depend on the processing

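The contrast in Ts mice called 5183 to 6982 genes under every alternative, within 1.5 times of 6697, and 6588 without the replicate block. Among the named genes of the contrast, the fit without the block ended the calls of Sod1 and Gm20458 and changed no other call. Leaving out 1 mouse gave 5756 to 6078, and in the supplemented diet 6160 to 6399. Library totals in place of TMM moved the split from 3427 and 3270 to 2523 and 4459, and in the supplemented diet from 3587 and 3292 to 2401 and 4810. Over 2041 combinations of a named gene and an alternative, 2003 kept direction and call, 21 lost the call, 13 gained it and 4 changed sign. Those 4 were Grin2b under library totals (-0.14, adjusted p = 0.0122 in edgeR) and Grm5 with no filter (0.012), after thinning (0.012) and without mouse 16-490 (0.016; without each mouse in turn, -0.046 to 0.016). The losses were those of Gria3, Gria4, Grm7, Sod1, Gm20458 and Wfs1, and the gains those of Gria1, Grin2a, Grm5 and Grik1. Among 26 subunit shares, 21 kept their side and direction with CPM in place of TPM, 4 gained the call and Gabra2 changed sign (2.51 percentage points, adjusted p = 0.195 in the exact permutation test). Left with 5 pairs, the exact test of shares cannot pass the threshold, and all 156 shares without 1 mouse were read as values with no test.

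Beside that split, the count of the genotype term depended on processing. It was called at 6 genes without the replicate block and at 2 with DESeq2, at 21 to 63 when 1 mouse was left out, at 41 with no filter and at 63 with the unassigned library taken as 2N, and 61 of 195 combinations of a named gene and an alternative lost the call. The cause was not tested. Depth limits low genes: 1 count in the shallowest library, of 807076 counts, is about 1 CPM.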
